A study of Mus musculus with 62 samples.

Results

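Transcripts of 6 genes were followed in mouse liver: the pentraxins Apcs and Crp, and the lipopolysaccharide recognition genes Lbp, Cd14, Tlr4 and Ly96. They were taken by symbol from the 47643 symbols of the deposited table, which held all 6. Of all symbols 12160 reached 1 TPM (a transcript level corrected for length and library size) in at least 5 of 62 libraries and were tested, among them the 6 genes. Apcs, Crp, Lbp, Cd14 and Ly96 reached 1 TPM in all 62 libraries and Tlr4 in 5, the smallest number that passes. Those 5 libraries were of mock-injected mice or of mice with the tumour that does not cause cachexia, so Tlr4 entered the test through these arms only.

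The livers came from female mice, 2 months old, 2, 4, 6 and 8 weeks after they received melanoma cells that cause cachexia (CAC), melanoma cells that do not (NCAC) or a mock injection (Con). Each arm had 5 libraries per week, apart from CAC at 8 weeks with 7. The sample labels give the strain as C57BL6/J, while the series' design text names NCI Ath/nude mice, and the extraction text speaks of an LLC injection that no group's label names. The labels do not settle which strain applies, and athymic nude mice lack mature T cells. The melanoma lines are not named, the libraries are called biological replicates, and each was taken as 1 animal.

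Pentraxins are secreted ring-shaped proteins that bind exposed microbial and cellular debris and engage complement and Fc receptors. Apcs encodes serum amyloid P component, the main acute phase pentraxin of the mouse, and Crp encodes C-reactive protein, the main one in humans and a minor responder in mice. Lbp encodes a plasma protein that lifts lipopolysaccharide out of bacterial membranes and hands it to CD14, which passes it to TLR4 and its partner MD-2, the product of Ly96. Hepatocytes make the pentraxins and LBP, while CD14, TLR4 and MD-2 are best known from Kupffer cells, the resident liver macrophages, and are also found in other liver cells.

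In mm10 with GENCODE M21, Crp spans chromosome 1, 172698055 to 172833031, on the plus strand, and Apcs spans 172893961 to 172895041 on the minus strand, 60.9 kb beyond the end of Crp. Ly96 lies on the same chromosome at 16688051 to 16709611. Lbp lies on chromosome 2 at 158306493 to 158332852 and Tlr4 on chromosome 4 at 66827584 to 66930284. The RefSeq promoter table (GRCm38.p6) matched 2 of the 6 genes, Crp and Apcs. These neighbouring pentraxins changed by different amounts, so their 250 bases before the annotated start are shown, each 5′ to 3′ on its gene's strand. The Crp window is chr1:172697806-172698055 on the plus strand and the Apcs window chr1:172895055-172895304 on the minus strand.
Crp: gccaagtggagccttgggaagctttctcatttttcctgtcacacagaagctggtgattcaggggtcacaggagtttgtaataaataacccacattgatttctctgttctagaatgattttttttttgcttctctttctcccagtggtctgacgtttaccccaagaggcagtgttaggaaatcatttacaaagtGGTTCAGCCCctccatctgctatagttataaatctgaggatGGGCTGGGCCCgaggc
Apcs: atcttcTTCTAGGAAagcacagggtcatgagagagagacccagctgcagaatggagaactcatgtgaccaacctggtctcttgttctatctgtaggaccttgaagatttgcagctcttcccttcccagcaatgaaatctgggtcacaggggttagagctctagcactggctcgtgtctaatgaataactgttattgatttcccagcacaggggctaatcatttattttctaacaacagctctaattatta

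Capitals mark matches to any of 7 motifs searched on both strands: TTCNNNGAA and TTCNNNNGAA for STAT factors, TTGCNNAA and TTGNNNCAA for C/EBP factors, GGGNNNNNCC for NF-kB, and GTTAATNATTAAC and its first part GTTAAT for HNF1. The Apcs window held 1 match, to TTCNNNGAA, at bases 244 to 236 before the start, which reads as a match on both strands. Of 32851 promoter windows of the same length 7.02% held that motif. The Crp window held 3 NF-kB matches, at bases 57 to 48, 16 to 7 and 15 to 6, the last pair overlapping, and 45.8% of all windows held that motif. Neither window held TTCNNNNGAA (5.85% of all windows), TTGCNNAA (9.56%), TTGNNNCAA (5.02%), GTTAAT (6.43%) or GTTAATNATTAAC (0.00913%). These matches describe letters in a window and show no binding.

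TPM is corrected for transcript length, so levels can be set beside each other across genes. At 8 weeks mean Apcs was 4057 ± 1432 TPM in CAC (SD, n = 7), 551 ± 204 TPM in NCAC (n = 5) and 427 ± 84.8 TPM in Con (n = 5). By mean level it ranked 41st of the tested genes in CAC, 196th in NCAC and 261st in Con. Apcs exceeded Crp in 60 of 62 libraries, Crp exceeded Lbp and Lbp exceeded Cd14 in 62 of 62, and Ly96 exceeded Tlr4 in 62 of 62. Cd14 and Ly96 were not ordered in the same way everywhere: Cd14 was higher in 41 of 62 libraries, including 7 of 7 of CAC at 8 weeks, 2 of 5 of NCAC at 8 weeks and 4 of 5 of Con at 8 weeks. From the lowest to the highest library the level varied 30.6-fold for Apcs, 9.62-fold for Lbp, 5.49-fold for Cd14, 5.11-fold for Tlr4, 2.52-fold for Ly96 and 2.51-fold for Crp.

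**Figure D1:**
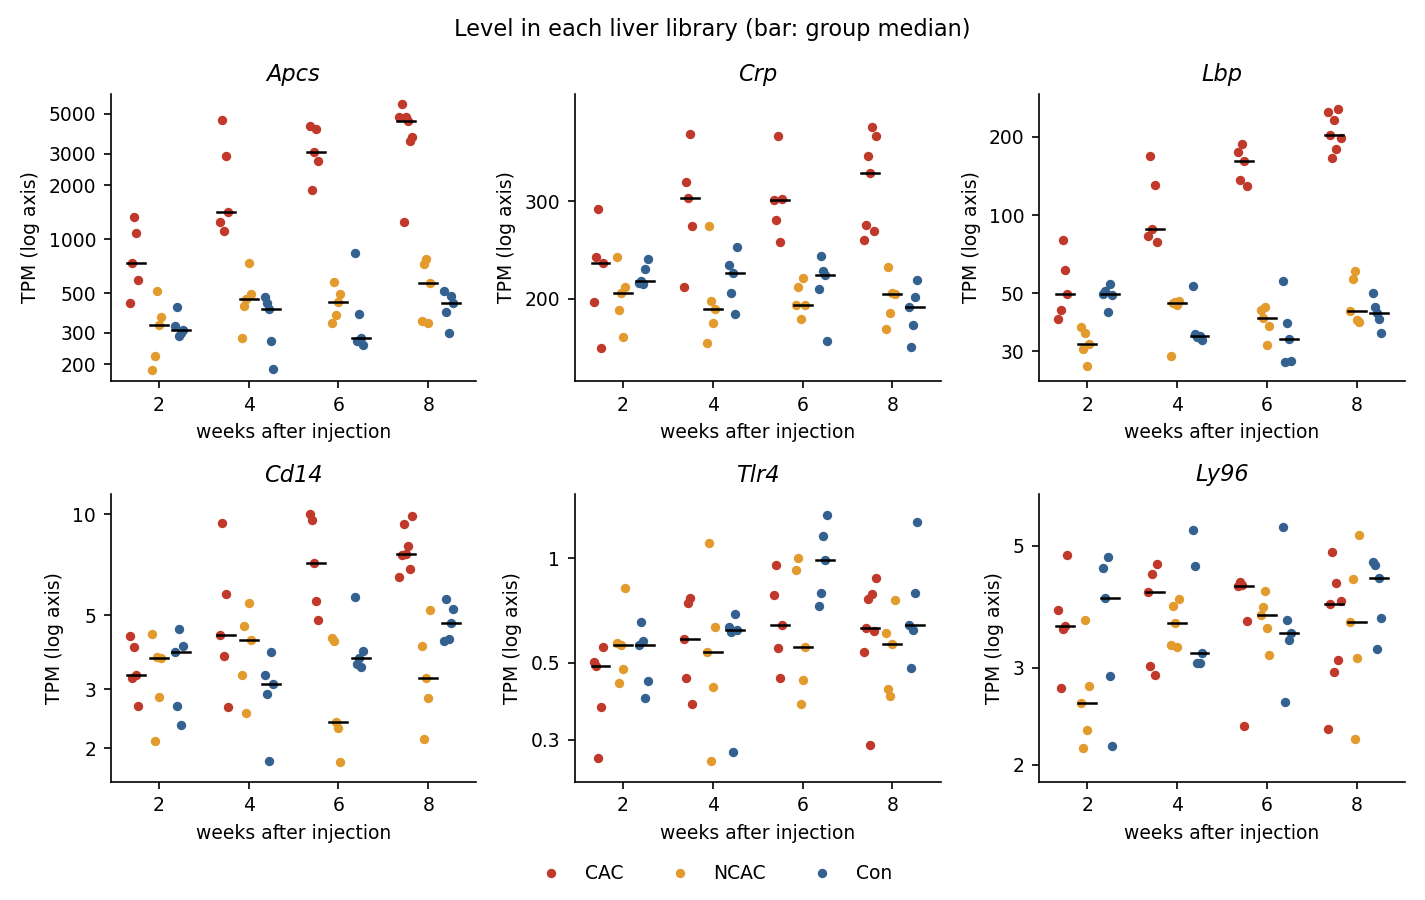
TPM of each gene in every library (points, log axis) by week, with CAC, NCAC and Con from left to right within a week and a bar at the group median. Apcs, Crp, Lbp and Cd14 of CAC at 8 weeks lie above all Con libraries of that week, while the Tlr4 and Ly96 groups overlap at every week.

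Libraries that stand apart bear on these values. In 12 libraries a pancreatic transcript (Ctrb1 at 100 TPM or more, 9 libraries) or a muscle transcript (Acta1 at 10 TPM or more) was present. They were 3 of CAC, 5 of NCAC and 4 of Con, and at 8 weeks 2 of NCAC and 2 of Con. CAC replicate 3 at 8 weeks had the lowest summed acute phase transcripts of its group (77896 TPM, where the other 6 had 188387 to 238207 TPM) and the highest summed erythroid markers (9776 TPM, where the others had 38.9 to 2257 TPM). Of 6 hepatocyte markers 1, Tat, was higher in CAC than in Con at 8 weeks. Their summed level (Alb, Apoa1, Ttr, Hnf4a, Cps1 and Tat) was 97703 to 125483 TPM in CAC, 84549 to 121826 TPM in NCAC and 101660 to 119145 TPM in Con at 8 weeks. In the same comparison 35.3% of all tested genes were called lower and 5.87% higher, and after median-of-ratios rescaling 14.6% lower and 12.5% higher. Of the markers of other cells, 4 of 4 tested for B and plasma cells, 2 of 2 for T and NK cells, 6 of 6 for pancreatic acinar cells and 3 of 4 for erythroid cells were lower, the last being 1 of 4 after rescaling. Con replicates 2 and 4 at 8 weeks held summed acinar markers of 4275 and 776 TPM, where the other Con libraries held 18.2 to 33.4 TPM, and summed B and plasma cell markers of 84.0 and 89.5 TPM, where the others held 7.34 to 16.3 TPM. None of 6 stellate and fibroblast markers passed (1 was higher after rescaling), nor did any of 4 tested muscle markers. In these bulk samples fewer cells of a type and less RNA per cell cannot be told apart.

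Apcs was higher in CAC than in Con at each week by exact permutation, and was called by limma at 4, 6 and 8 weeks. At 2 weeks the 5 CAC libraries held 443, 736, 1328, 1088 and 595 TPM, against 329, 419, 289, 301 and 310 TPM in Con. The lowest CAC value exceeded the highest Con value, as was so for 2.08% of all tested genes, and the exact permutation test gave 2-sided p = 0.00794, the smallest that 5 against 5 allows (adjusted p = 0.0260 over 72 tests). In the limma fit over all genes the difference was 1.25 ± 0.36 (SE, log2 of TPM + 1) and did not pass (adjusted p = 0.205).

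At 4 weeks Apcs stood at 1244, 4616, 1112, 2901 and 1415 TPM in CAC, against 477, 440, 409, 270 and 188 TPM in Con. Replicates 2 and 4 of CAC held the highest levels. CAC lay wholly above Con, as was so for 1.64% of all tested genes at 4 weeks. The difference was 2.51 in limma (adjusted p = 1.86e-06). At 6 weeks CAC held 4292, 1877, 3065, 4137 and 2735 TPM and Con 835, 272, 380, 281 and 256 TPM, a difference of 3.09 (limma, adjusted p = 3.97e-09). CAC again lay wholly above Con, as was so for 3.82% of all tested genes at 6 weeks.

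At 8 weeks Apcs ranged over 1248, 4595 and 5658 TPM in CAC (lowest, median and highest of 7), against 515, 394, 298, 482 and 442 TPM in Con. The lowest CAC value, that of replicate 3, was still above all Con libraries, as held for 1.85% of all tested genes at 8 weeks. The difference was 3.15 ± 0.33 (limma, adjusted p = 1.17e-10), and 3.41 without replicate 3. NCAC held 349, 728, 774, 338 and 568 TPM and overlapped Con (0.31 in limma).

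Crp rose less. At 8 weeks its level was 256, 338 and 409 TPM in CAC (lowest, median and highest), against 193, 164, 179, 202 and 216 TPM in Con. CAC lay wholly above Con, as held for 1.85% of all genes, and the difference was 0.76 ± 0.13 (limma, adjusted p = 7.28e-06), a ratio of means of 1.72. At 6 weeks the CAC libraries held 302, 278, 393, 253 and 303 TPM and the Con libraries 209, 239, 224, 221 and 168 TPM. CAC lay wholly above Con here too, as held for 3.82% of all genes, and the difference was 0.52 (limma, adjusted p = 0.00772). That call was lost without the 12 libraries that hold other tissues (0.44, adjusted p = 0.103).

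At 4 weeks 4 of 5 CAC livers had more Crp than all Con livers, at 210, 325, 304, 398 and 271 TPM in CAC against 231, 205, 223, 188 and 248 TPM in Con. That difference of 0.44 ± 0.14 did not pass in limma (adjusted p = 0.0982), but did without CAC replicate 1 (adjusted p = 0.0170), the library with the lowest value. At 2 weeks the means were 224 ± 47.7 TPM in CAC and 221 ± 10.05 TPM in Con (SD, n = 5 each), with a limma difference of 0.00.

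The change of both pentraxins was set side by side as the ratio of Apcs to Crp within a library, which no library-wide scaling can alter. Ratios were chosen after the values had been seen, and their p-values are exact 2-sided permutation values adjusted over 48 tests. The ratio of Apcs to Crp had a median of 13.4 in CAC, 2.79 in NCAC and 2.39 in Con at 8 weeks. All 7 CAC libraries lay above all 5 Con libraries, by 2.39 on the log2 scale (exact p = 0.00253, adjusted p = 0.0201). CAC lay wholly above Con at 2, 4 and 6 weeks too, by 1.25, 2.07 and 2.57. In CAC the median ratio was 3.09 at 2 weeks, 5.93 at 4, 9.02 at 6 and 13.4 at 8 weeks, while in Con it was 1.36, 1.84, 1.53 and 2.39. Without the 12 libraries that hold other tissues the differences were 1.16 at 2 weeks and 2.25 at 6 weeks and did not pass (exact permutation, adjusted p = 0.0536 and 0.0762). This left fewer CAC libraries at 2 weeks and fewer of both arms at 6 weeks. The CAC libraries left still lay wholly above those of Con, so the number of libraries limits these p-values. Against NCAC the ratio was higher in CAC at 8 weeks by 2.15 on the log2 scale (exact permutation, adjusted p = 0.0201), but the 2 arms overlapped. The lowest CAC ratio was 3.44 and the highest NCAC ratio 4.11. CAC and NCAC also overlapped at 2 and 4 weeks, but not at 6 weeks.

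**Figure D2:**
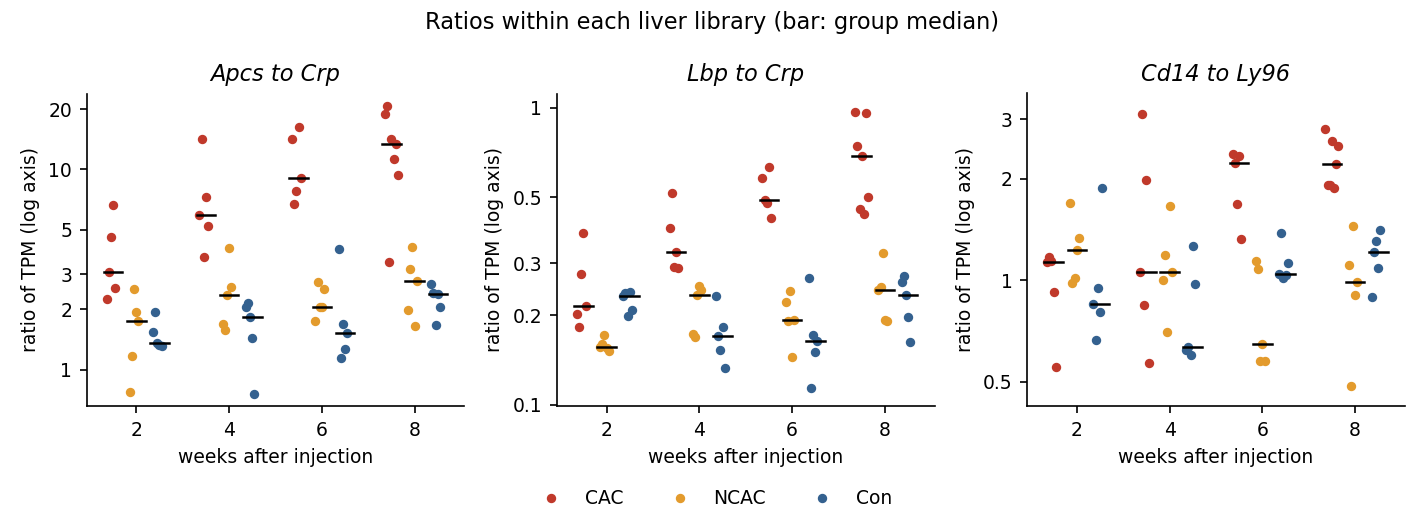
Ratio of TPM within each library (points, log axis) by week, with CAC, NCAC and Con from left to right and a bar at the group median. The median Apcs to Crp ratio at 8 weeks was 13.4 in CAC, 2.79 in NCAC and 2.39 in Con, and the Cd14 to Ly96 ratios were 2.22, 0.988 and 1.21.

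Lbp, the lipopolysaccharide carrier of plasma, was close to Con at 2 weeks and higher in CAC at each later week. At 2 weeks its level was 40.1, 43.4, 80.3, 61.7 and 49.9 TPM in CAC, against 49.7, 51.2, 42.4, 54.4 and 49.2 TPM in Con, overlapping groups that differed by 0.11 ± 0.18 (limma, adjusted p = 0.849). At 4 weeks CAC held 82.9, 168, 88.5, 130 and 78.6 TPM and Con 53.5, 35.0, 34.1, 34.2 and 33.1 TPM. CAC now lay wholly above Con, as held for 1.64% of all genes, and the difference was 1.47 (limma, adjusted p = 1.08e-07).

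At 6 weeks Lbp was at 175, 136, 187, 161 and 129 TPM in CAC and at 55.7, 27.2, 38.5, 33.4 and 27.5 TPM in Con (2.12 in limma, adjusted p = 1.77e-12). At 8 weeks it was at 166, 203 and 255 TPM in CAC (lowest, median and highest), against 50.2, 44.5, 42.0, 39.8 and 35.3 TPM in Con. CAC lay wholly above Con at both weeks, as held for 3.82% of all genes at 6 weeks and 1.85% at 8 weeks. The 8 week difference was 2.29 ± 0.17 (limma, adjusted p = 1.79e-15), a ratio of means of 5.00. Relative to Crp in the same library Lbp had a median of 0.686 in CAC, 0.243 in NCAC and 0.234 in Con at 8 weeks, higher in 7 of 7 CAC libraries than in any Con library (1.55, exact permutation adjusted p = 0.0152).

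The step in Lbp between 2 and 4 weeks was itself tested. CAC minus Con was larger at 4 than at 2 weeks by 1.35 ± 0.26 (limma interaction, adjusted p = 0.0163), among 0.0658% of all genes called in that test. Both arms enter this step: Lbp averaged 55.1 TPM at 2 weeks and 110 TPM at 4 weeks in CAC, and 49.4 and 38.0 TPM in Con, where the change was -0.39 (adjusted p = 0.580). The call was lost without CAC replicate 1 of 2 weeks, CAC replicate 2 of 4 weeks, Con replicate 2 of 2 weeks or Con replicate 4 or 5 of 4 weeks (Lbp adjusted p between 0.0513 and 0.0888), and after median-of-ratios rescaling (1.35, adjusted p = 0.0769) or, separately, with the 20 highest genes removed (adjusted p = 0.0581). It was also lost without the pancreatic libraries (adjusted p = 0.361) or all libraries that hold other tissues (1.29, adjusted p = 0.367). No other step of any of the 6 genes passed in either tumour arm.

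In NCAC, Lbp was lower than in Con at 2 weeks by the permutation test alone. The NCAC libraries held 37.4, 30.5, 35.3, 26.5 and 31.9 TPM, all below the lowest Con library at 42.4 TPM. The same held for 4.63% of all tested genes at that week. The difference was -0.60 ± 0.18, with exact permutation p = 0.00794 (adjusted p = 0.0260) but adjusted p = 0.332 in limma. At 4, 6 and 8 weeks NCAC and Con overlapped, with Lbp differences of 0.17, 0.15 and 0.16.

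Cd14, the receptor that takes lipopolysaccharide from LBP, was higher in CAC at 6 and 8 weeks. The gene lies on chromosome 18 at 36725067 to 36726798 (mm10). At 8 weeks it stood at 6.52, 7.63 and 9.91 TPM in CAC (lowest, median and highest), against 4.17, 5.58, 4.25, 4.75 and 5.23 TPM in Con. CAC lay wholly above Con, as held for 1.85% of all genes. The difference was 0.63 ± 0.19 (limma, adjusted p = 0.0070), 0.59 without CAC replicate 3. NCAC held 4.04, 2.12, 3.24, 2.83 and 5.17 TPM at that week, below every CAC library, as held for 1.47% of all genes. CAC exceeded NCAC by 1.03 (limma, adjusted p = 2.27e-05).

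At 6 weeks Cd14 was at 10.01, 9.62, 7.16, 5.50 and 4.83 TPM in CAC, against 5.65, 3.58, 3.73, 3.497 and 3.90 TPM in Con. Replicates 1 and 2 of CAC were the highest, and both arms overlapped through Con replicate 1. The difference was 0.70 (limma, adjusted p = 0.0156) but did not pass without CAC replicate 1 (adjusted p = 0.0791) or 2 (adjusted p = 0.0522), without the 12 libraries that hold other tissues (adjusted p = 0.187), or in the exact permutation test (p = 0.0238, adjusted p = 0.0686). At 4 weeks the difference was 0.56 (limma, adjusted p = 0.183), and it passed without CAC replicate 5 (adjusted p = 0.0479).

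Cd14 is expressed by macrophages and other myeloid cells, so their markers are given beside it for 8 weeks. Of 10 Kupffer cell markers none was higher in CAC than in Con (5.87% of all genes were) and 5 were lower (35.3% of all genes were): Cd5l (-1.03), Adgre1 (-0.86), Timd4 (-0.85), Csf1r (-0.74) and Clec4f (-0.74). After median-of-ratios rescaling none was higher and 3 were lower, against 12.5% and 14.6% of all genes. Their summed level was 198 to 731 TPM in CAC, 299 to 455 TPM in NCAC and 542 to 742 TPM in Con, and no Kupffer marker was listed at 0 in all libraries. Of 7 sinusoidal endothelial markers 4 were higher, among them Clec4g (0.85) and Stab2 (0.69), and 1 lower, with sums of 90.1 to 230 TPM in CAC and 76.1 to 135 TPM in Con. Of 3 tested monocyte markers Fn1, which hepatocytes also make, was higher (0.81) and Ly6c2 lower (-0.47). Of 5 tested neutrophil markers 2 were higher, Stfa2l1 (0.87) and Retnlg (0.77). The summed level of all 8 listed neutrophil markers was 10.97 to 85.2 TPM in CAC, highest in replicate 3, and 10.9 to 33.5 TPM in Con. Against NCAC, where the Cd14 difference was 1.03, none of the 10 Kupffer markers was called. In that comparison 5.09% of all genes were called higher and 43.1% lower. The part of these cells in the Cd14 difference was not tested.

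Tlr4, the signalling receptor, was near the limit of the filter and did not pass in any comparison. No CAC library reached 1 TPM, so the filter was passed through Con and NCAC libraries only. The highest, Con replicate 5 at 6 weeks (1.33 TPM), is 1 of the libraries that hold muscle transcript. At 8 weeks its level was 0.289, 0.630 and 0.874 TPM in CAC (lowest, median and highest), against 0.642, 0.482, 0.622, 0.793 and 1.27 TPM in Con. The groups overlapped, and the difference was -0.10 with a 95% interval of -0.32 to 0.12 (limma, adjusted p = 0.507). At 6 weeks all 5 CAC libraries lay below the Con median, with means of 0.677 ± 0.197 TPM in CAC and 1.00 ± 0.25 TPM in Con. NCAC averaged 0.662 ± 0.285 TPM at that week (-0.28 against Con, limma adjusted p = 0.535), and Con itself averaged 0.5261 ± 0.105 TPM at 2 weeks (0.38 higher at 6 weeks, adjusted p = 0.0871). The CAC minus Con difference of -0.25 at 6 weeks did not pass (limma, adjusted p = 0.127), except with the 20 highest genes removed from scaling (-0.41, adjusted p = 0.0386). On this scale a change in a transcript below 1 TPM is understated.

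Ly96 encodes MD-2, the part of the receptor that holds the lipid. At 8 weeks it was at 2.32, 3.93 and 4.87 TPM in CAC (lowest, median and highest), against 4.68, 4.61, 3.24, 4.36 and 3.69 TPM in Con. The groups overlapped, with a difference of -0.16 and a 95% interval of -0.46 to 0.15 (limma, adjusted p = 0.419), and the sign turned under rescaling (0.03 after median-of-ratios). The ratio of Cd14 to Ly96 in a library had a median of 2.22 in CAC, 0.988 in NCAC and 1.21 in Con at 8 weeks. It was higher in every CAC library than in any Con library (0.94, exact permutation adjusted p = 0.0152) and than in any NCAC library (1.26, adjusted p = 0.0152).

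**Figure D3:**
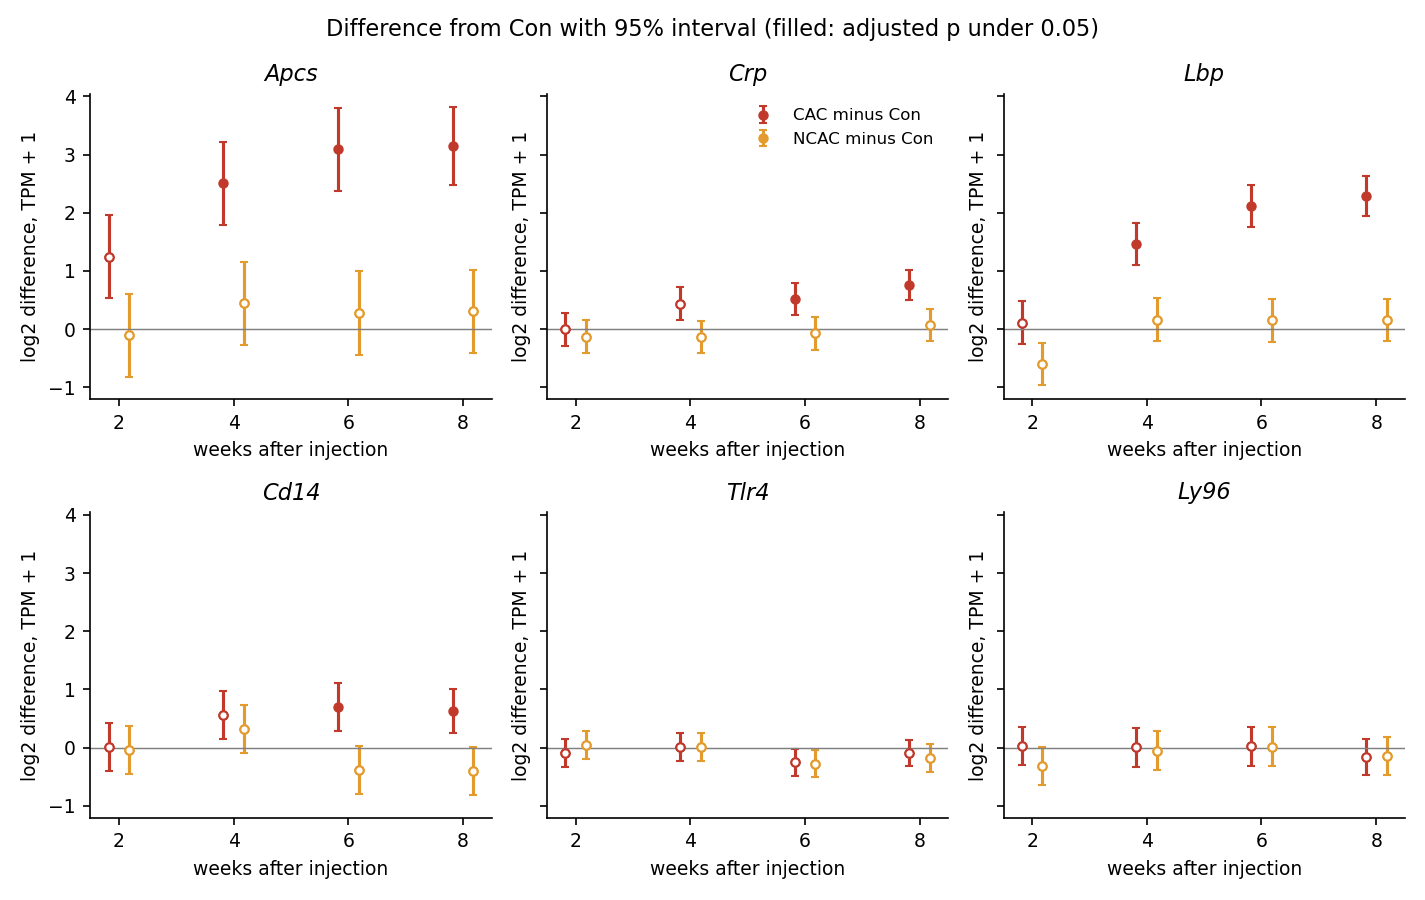
Difference in log2(TPM + 1) with its 95% interval by week, CAC minus Con on the left and NCAC minus Con on the right of each week, filled where adjusted p was under 0.05. CAC minus Con of Apcs was 1.25 at 2 weeks and 3.15 at 8 weeks, and no NCAC difference passed.

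Counted over the 6 genes, CAC against Con called 0 at 2 weeks, 2 at 4 weeks, 4 at 6 weeks and 4 at 8 weeks, all higher, where 0.00822%, 1.30%, 5.00% and 5.87% of all tested genes were called higher. In either direction 0.00822%, 1.91%, 15.3% and 41.2% of all genes were called. None of the 6 was lower, against 0%, 0.609%, 10.3% and 35.3% of all genes. The genes called at 4 weeks were Apcs and Lbp, and Crp and Cd14 were called too at 6 and 8 weeks. Without the 12 libraries that hold other tissues the 6 week count was 2, since Crp (adjusted p = 0.103) and Cd14 did not pass. At 8 weeks 4 of the 6 had every CAC library above every Con library, against 1.85% of all genes.

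CAC against NCAC called 0, 3, 4 and 4 of the 6 at 2, 4, 6 and 8 weeks, all higher, against 0%, 1.11%, 6.55% and 5.09% of all genes. None was lower, against 0%, 0.156%, 5.54% and 43.1% of all genes. At 8 weeks CAC exceeded NCAC by 2.84 for Apcs (limma, adjusted p = 2.26e-09), 2.13 for Lbp (adjusted p = 3.27e-14) and 0.69 for Crp (adjusted p = 2.77e-05). At 4 weeks Crp was 0.57 higher in CAC (adjusted p = 0.0182), a call lost without CAC replicate 2 or 4 or without NCAC replicate 1 or 4 of that week. It did not hold under every other alternative either, where the difference lay between 0.47 and 0.65 with limma adjusted p from 0.00371 to 0.3365. At 2 weeks every CAC library had more Lbp than every NCAC library, as held for 2.95% of all genes (0.71, exact permutation adjusted p = 0.0260, limma adjusted p = 0.172).

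NCAC against Con called none of the 6 at any week, against 0%, 0%, 0% and 0.181% of all genes in either direction. At 8 weeks 0.0247% of all genes were called higher and 0.156% lower. In limma Lbp at 2 weeks was the 1 gene of the 6 with an unadjusted p under 0.01 in these 4 comparisons. CAC and NCAC were set against the same Con libraries, so these comparisons are not independent. Within Con, none of the 6 passed at 4, 6 or 8 weeks against 2 weeks, where 0%, 0.123% and 0.296% of all genes did. When CAC against Con, NCAC against Con and CAC against NCAC were tested by exact permutation for each gene and week, 24 of 72 differences had an adjusted p under 0.05, namely 10, 1 and 13. The permutation test was run on the 6 genes only, so this count has no share of all genes to be read against.

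Values were compared between scalings. The median of all tested genes in CAC against Con at 8 weeks was -0.21 in the deposited values. It was -0.01 once libraries were rescaled by the median of ratios and -0.37 with the 20 highest genes removed. After median-of-ratios rescaling the differences were 3.39 for Apcs, 2.53 for Lbp, 1.00 for Crp, 0.84 for Cd14, 0.00 for Tlr4 and 0.03 for Ly96. The first 4 passed under each of the 5 scalings run (limma, highest adjusted p = 0.0293, for Cd14).

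The genes around the 6 were described from lists, each by its count in CAC against Con at 8 weeks. Each count is to be read against 5.87% of all genes called higher and 35.3% called lower as deposited, and 12.5% and 14.6% after median-of-ratios rescaling. Of 18 pentraxin receptors and complement partners 5 were higher and 3 lower, with a list median of -0.20. The higher ones included C4b (1.06) and C3 (1.02), complement proteins that coat targets, and C4bp (0.58), and the lower ones included Mbl2 (-1.06), a mannose-binding lectin. C3 averaged 7997 TPM in CAC and 3943 TPM in Con. The inhibitory Fc receptor Fcgr2b was higher (0.61), while the Fc receptor chain Fcer1g was lower (-0.62), a call lost after median-of-ratios rescaling (adjusted p = 0.189). Of 8 pentraxin relatives, Ptx3 and the neuronal pentraxins among them, 7 were in the table and none reached the filter. Ptx3 averaged 0.00748 TPM in CAC and 0.0835 TPM in Con.

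Of 11 co-factors and chaperones of TLR4 none was higher and 6 were lower as deposited, beside 35.3% of all genes called lower, with a list median of -0.18. Among them were Unc93b1 (-0.50), which traffics Toll-like receptors, Cnpy3 (-0.39), which helps them fold, Cnpy4 (-0.33), and Ly86 (-0.66), which encodes MD-1. After median-of-ratios rescaling none of the 6 was called lower, and Tmed7 was called higher (0.53). Of 21 adaptors and kinases 1 was higher and 4 were lower. Myd88, the adaptor shared by most Toll-like receptors, was higher at 4 weeks (0.40, limma adjusted p = 0.00253) and at 8 weeks (0.36, adjusted p = 2.69e-04), where it averaged 14.1 TPM in CAC, 11.3 TPM in NCAC and 10.7 TPM in Con. Irf5, a transcription factor downstream of them, was lower (-1.41), at 4.10 TPM in CAC and 12.1 TPM in Con, and the kinases Irak2 (-0.66) and Irak1 (-0.40) were lower too. After median-of-ratios rescaling 5 of the 21 were higher and 2 lower, beside 12.5% and 14.6% of all genes, Myd88 (0.59) higher and Irf5 (-1.21) and Irak2 (-0.45) lower, while Irak1 did not pass.

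Of 12 tested inhibitors of TLR4 signalling 3 were higher and 2 lower. Irak3, a kinase-like protein that holds back signalling below MyD88, was higher (0.89), at 1.94 TPM in CAC and 0.566 TPM in Con, and so was Zc3h12a, a ribonuclease that degrades inflammatory messages (0.56). Sigirr (-0.41), an inhibitory receptor of the interleukin-1 receptor family, and Inpp5d (-0.33), a lipid phosphatase, were lower as deposited and did not pass after median-of-ratios rescaling. Of 8 other Toll-like receptors none was higher and Tlr5 (-1.02), the flagellin receptor, and Tlr1 (-0.61) were lower, in both scalings. Of 17 other sensors and scavengers 5 were higher and 5 lower. Lcn2, which sequesters bacterial siderophores, had the largest difference of them (5.37), while Lyz2, the lysozyme of macrophages (-1.61), Pltp, a relative of LBP that transfers phospholipid (-1.06), and Itgb2, a leukocyte integrin chain (-0.83), were lower.

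Of 22 regulators of the acute phase response 9 were higher and 3 lower, beside 5.87% and 35.3% of all genes, with a list median of 0.19. Il1r1, a receptor for interleukin-1, was higher by 2.83, Socs3, a feedback inhibitor of cytokine receptors, by 2.61, Osmr, a receptor for oncostatin M, by 1.43, Stat3 by 0.85, and Tnfrsf1a, a receptor for tumour necrosis factor, by 0.83. Cebpa, a C/EBP factor of mature hepatocytes, was lower (-1.12). Socs3 (2.46, limma adjusted p = 5.55e-08) and Stat3 (0.68, adjusted p = 0.00115) were already higher at 4 weeks. Of 32 tested acute phase transcripts 28 were higher, a list that holds Apcs, Crp and Lbp and shares Lcn2 and C3 with lists above. In NCAC against Con at 8 weeks no gene of these lists was called.

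**Figure D4:**
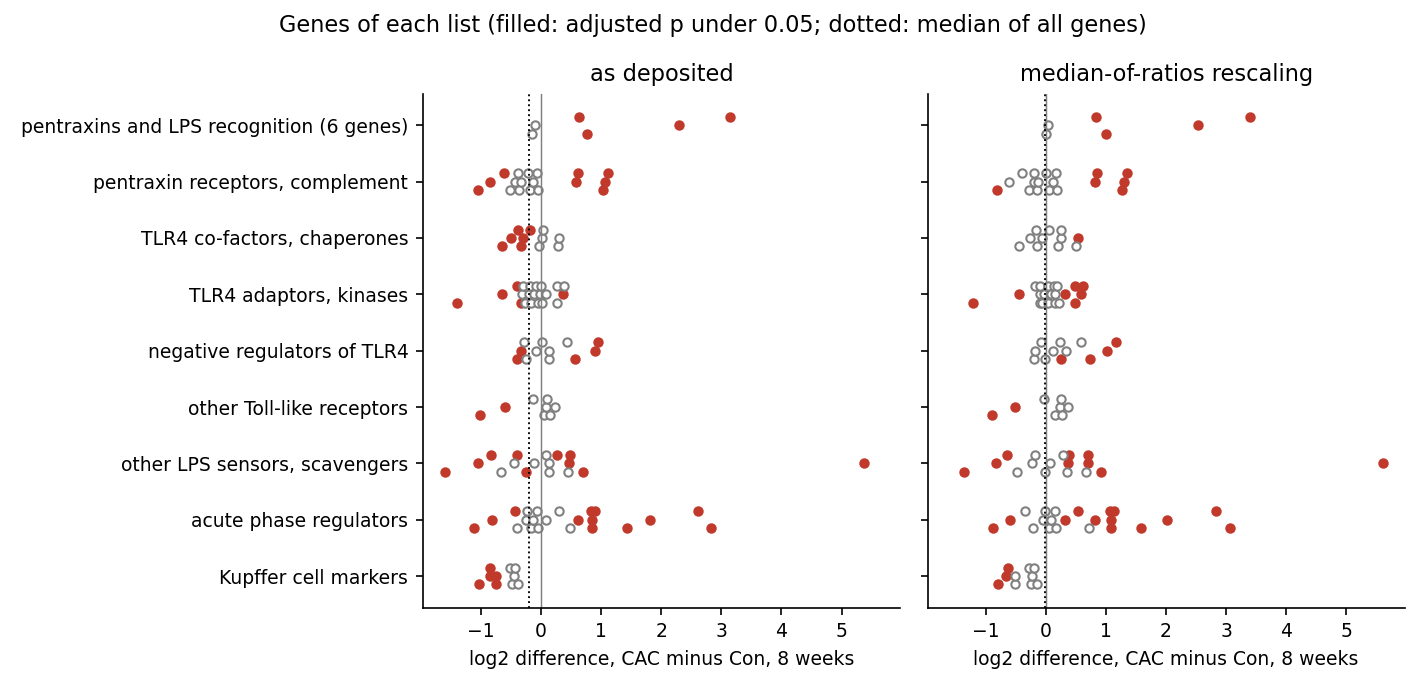
Difference in log2(TPM + 1), CAC minus Con at 8 weeks, of each tested gene by list, as deposited (left) and after median-of-ratios rescaling (right), filled where adjusted p was under 0.05, with a dotted line at the median of all tested genes. The 6 lower calls among TLR4 co-factors and chaperones as deposited are absent after rescaling, while Apcs, Lbp, Crp and Cd14 are called in both.

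Among the 7 CAC libraries at 8 weeks, 15 pairs of the 6 genes were compared. Only Lbp and Ly96 passed, with Pearson r = -0.93 (exact permutation p = 0.00278, adjusted p = 0.0417) and Spearman rho = -0.89 (exact p = 0.0123, adjusted p = 0.0923). Without the 2 libraries farthest from the median of Lbp, r was -0.98 over 5 libraries. Replicate 1 had the lowest Ly96 (2.32 TPM) and 249 TPM of Lbp, and replicate 3 had the highest Ly96 (4.87 TPM) and the lowest Lbp (166 TPM). Apcs and Lbp had r = 0.54 (exact permutation adjusted p = 0.283; rho = 0.29, adjusted p = 0.595). As deviations from group means over all 62 libraries, Apcs and Lbp had r = 0.68, Cd14 and Tlr4 0.42, Apcs and Crp 0.11, and Lbp and Ly96 -0.01. These values share libraries and scaling and are given as description.

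The genes with the most similar pattern over the 62 libraries, among 7840 compared by Pearson r of log2(TPM + 1), differed between the 6. For Apcs they were Orm1 (r = 0.97), Fgg and Hpx, and for Lbp Fgg (0.97), Fga and Itih3, which all encode plasma proteins. For Crp they were Steap4 (0.84), Saa4 and Cpb2. For Cd14 they were Tmem173 (0.89), which encodes the STING protein, Lgmn (0.87), a lysosomal protease, and Serpina3g (0.84). For Tlr4 they were Calcrl (0.77), Msn and Axl, and for Ly96 Slc39a8 (0.64), Rhou and Dtx4. As deviations from group means r was 0.84 for Apcs with Orm1, 0.78 for Lbp with Fgg, 0.70 for Cd14 with Tmem173 and 0.59 for Crp with Steap4.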

How the data were processed

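RNA of 62 liver libraries was sequenced from Trizol extracts with a stranded TruSeq mRNA kit, per the labels' protocols. The authors deposited 1 table of TPM for 47643 symbols, each library summing to 1000000. The build was mm10, per the submitters' processing notes. The aligner and the quantifier were not given in the sources used here, nor was the depth. Counting error is therefore unknown, and no count model was used.

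The 12160 symbols that reached 1 TPM in 5 or more libraries entered a limma fit (version 3.58.1, R 4.3.3) of log2(TPM + 1), which had a mean for each of 12 groups and a trend in the spread. Adjusted p-values are Benjamini-Hochberg over all tested genes within a comparison, and a gene was called at adjusted p under 0.05. Single genes were also tested by exact permutation of libraries (2-sided, Python 3.11.15, SciPy 1.17.1). The fit was tested on simulated data.

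The 6 genes and all lists were chosen with earlier results of these data known. From each list up to 4 called genes with the smallest p in CAC against Con at 8 weeks are named, and others with their values. The 3 genes most alike each of the 6 averaged 5 TPM or more in some group and carry no predicted or clone name. Alternatives were another pseudocount, filters, 4 rescalings, a fit within each week, robust moderation, the replicate number as a block, and libraries left out.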

Additional observations from a re-analysis of the deposited data

Results flagged for a closer look

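In 72 groups (6 genes in 12 groups) the highest or lowest library was compared with the rest of its group on the log2 scale, and 6 stood apart. Chance flags about 1 in 20 groups. Apcs in CAC replicate 3 at 8 weeks, 1248 TPM, lay below the other 6, the next being 3541 TPM. Lbp in NCAC replicate 1 at 4 weeks was 28.71 TPM, below the other 4 at 45.4 to 46.7 TPM, and Lbp in Con replicate 1 at 4 weeks was 53.46 TPM, above the other 4 at 33.1 to 35.0 TPM. Cd14 in Con replicate 1 at 6 weeks was 5.647 TPM, above the others at 3.497 to 3.90 TPM. Tlr4 in Con replicate 3 at 4 weeks was 0.2768 TPM, below the others, and Ly96 in CAC replicate 4 at 6 weeks was 2.356 TPM, below the others.

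The CAC minus Con difference of Lbp was larger at 4 weeks than at 2 weeks by 1.351 (limma interaction, adjusted p = 0.0163), the 1 step of 36 tested for the 6 genes that passed. Without Con replicate 1 at 4 weeks, the Con library whose Lbp stood apart, the step was 1.48 (adjusted p = 0.00604). The call was lost in 5 of the 20 fits that left out 1 library, where the step lay between 1.18 and 1.497 with adjusted p up to 0.0888 over all 20, and adjusted p reached 0.367 over the other alternatives.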

How the results depend on the processing

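No called difference of the 6 genes changed sign under any alternative run. Counts of genes called moved by over 1.5 times, or from or to 0, in these cases. The number of genes called in the 4 minus 2 week step of CAC minus Con, 1 as reported, was 0 after median-of-ratios rescaling, with the 20 highest genes removed, and without the pancreatic or all other-tissue libraries, and 0 to 1 when 1 library was left out. With a fit within each week 1 gene was called in CAC against Con and 2 in CAC against NCAC at 2 weeks, where 0 were reported (Apcs, adjusted p = 0.0267 and 0.0243, and Lbp, 0.0235). Without other-tissue libraries 2 of 4 calls were left in CAC against Con at 6 weeks. Other counts moved by 1.5 times or less when 1 library was left out. They were 2 to 3 in CAC against Con at 4 weeks, 3 to 4 at 6 weeks, and 2 to 3 in CAC against NCAC at 4 weeks. Leaving out 1 library at 8 weeks, CAC minus Con stayed within 3.03 to 3.41 for Apcs, 2.23 to 2.35 for Lbp, 0.70 to 0.82 for Crp and 0.58 to 0.68 for Cd14. Crp in CAC against Con at 4 weeks passed with quantile normalization (adjusted p = 0.0464) or the acute phase list removed (0.0286), and the filter at a mean of 5 TPM left out Cd14, Tlr4 and Ly96. With the replicate block CAC minus Con at 8 weeks was 3.16 for Apcs, and no call on the 6 genes changed. Same-numbered libraries of a week had a median correlation of deviations of -0.040 over 60 pairs, with 10 over 0.1, so the numbers were not taken as pairs. Depth is unknown, which limits what can be said of Tlr4, below 1 TPM in 57 of 62 libraries.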
